A study of Oryza sativa with 4 samples.

Results

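The 2 loci described here are LOC_Os03g29760 on chromosome 3 and LOC_Os04g50920 on chromosome 4, at positions 17409537 to 17422233 and 30207230 to 30217896 of the rice genome as the deposited peak lists give them (no source used here states the build). They were chosen because their peaks differed between heat-treated and untreated root tips. HS set against Normal is therefore given at them as a description, with no test. Every peak of every library that shared at least 1 bp with a window was taken, which gave 15 peaks of 263765 over the 4 libraries. After peaks that overlapped between libraries were merged, each window held exactly 1 region of 66332 in the series, and both were among the 55496 regions called in all 4 libraries.

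The samples were nuclei from the last 5 mm of the primary roots of Nipponbare rice seedlings 3 days old, measured by single-cell ATAC-seq, in which the Tn5 transposase cuts open chromatin and each nucleus carries its own barcode. Seedlings of all 4 libraries were grown at 28 °C. The HS group held 2 libraries from seedlings then kept for 3 h at 45 °C, and the Normal group held 2 libraries from seedlings without this treatment. No mutation or transgene is named for either group. All 4 libraries come from 1 cultivar and 1 tissue. The study describes the HS libraries as separate rounds and its samples as processed in different batches, but no source used here says which libraries shared a batch or whether the Normal libraries came from separate pools of seedlings. P-values of the heat comparison therefore measure the spread between these libraries, and a batch cannot be told apart from the treatment. P-values between cell groups in Normal come from a fit with library as a covariate. They measure how the differences between groups vary across the 2 Normal libraries.

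The number of nuclei was 10719 and 10727 in HS, against 12708 and 12604 in Normal. The median nucleus held 27765 and 28143 cut sites in peaks in HS, against 23709 and 23839.5 in Normal, so HS nuclei were read more deeply. Any 2 libraries shared between 163 and 254 barcodes among their nuclei. Rates are given per 10000 cut sites in the 55496 shared regions, which takes depth out of the sums, and shares of nuclei are given both as deposited and after thinning to 1 depth. A sum over all nuclei cannot tell a change within nuclei from a change in which nuclei were sampled.

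Accessible regions near a plant gene are where transcription factors reach the DNA, and a peak is a stretch in which Tn5 cut more often than in its surroundings. LOC_Os04g50920 encodes a transcription factor of the WRKY family, a plant family whose members bind W-box elements and are best known for roles in defence and in responses to stress. The study lists the gene as a marker of both root hair and root cap. From single-cell RNA data it also reports expression in these cell types only. It proposes the gene as a possible activator of LOC_Os10g42750, which has a WRKY motif in its accessible region. LOC_Os10g42750 is among the root hair genes used below to group nuclei. Root hairs are outgrowths of epidermal cells that take up water and minerals, the root cap covers and protects the growing tip, and the endodermis is the inner layer that controls passage into the stele. LOC_Os03g29760 has no annotated function in these sources, and none is given to it.

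The window of the WRKY gene lies mostly before it. LOC_Os04g50920 is on the plus strand of chromosome 4 from 30217396 to 30221168, so the window covered 10166 bp upstream of the gene start and the first 501 bp of the gene. The nearest gene on the other side with a known position, LOC_Os04g50910, is on the minus strand and its start faces the window from 2897 bp away, so the window lies upstream of both genes. The position of LOC_Os03g29760 itself was not analysed here, but an accessible region that the study annotates as exonic in this gene lies in the first peak of the locus in all 4 libraries.

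At LOC_Os03g29760 both HS libraries had 1 unbroken peak where both Normal libraries had 2. The HS peak ran from 17409548 to 17422213 in replicate 1 and from 17409537 to 17422233 in replicate 2. The Normal peaks ran from 17409602 to 17412810 and from 17414102 to 17422188 in replicate 1, and from 17409620 to 17412837 and from 17414077 to 17422190 in replicate 2. The stretch between the 2 Normal peaks, 1291 bp in replicate 1 and 1239 bp in replicate 2, was thus called in HS and not in Normal, while the outer ends of the locus nearly matched.

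At LOC_Os04g50920 the joining went further in one HS library than in the other. HS replicate 2 had 1 peak from 30207230 to 30217882, and HS replicate 1 had 2 peaks, from 30207248 to 30212645 and from 30213158 to 30217896, with 512 bp between them. Normal replicate 1 had 3 peaks, from 30207303 to 30210913, from 30211796 to 30212549 and from 30213188 to 30217841. Normal replicate 2 also had 3, from 30207291 to 30210959, from 30211794 to 30212554 and from 30213206 to 30217824. The gaps of 882 and 638 bp in Normal replicate 1 and of 834 and 651 bp in Normal replicate 2 were narrowed to 1 gap in HS replicate 1 and were absent in HS replicate 2. Both loci had fewer peaks in both HS libraries than in both Normal libraries, as did 3.32% of all regions, which is how the loci were chosen and is read no further.

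**Figure D1:**
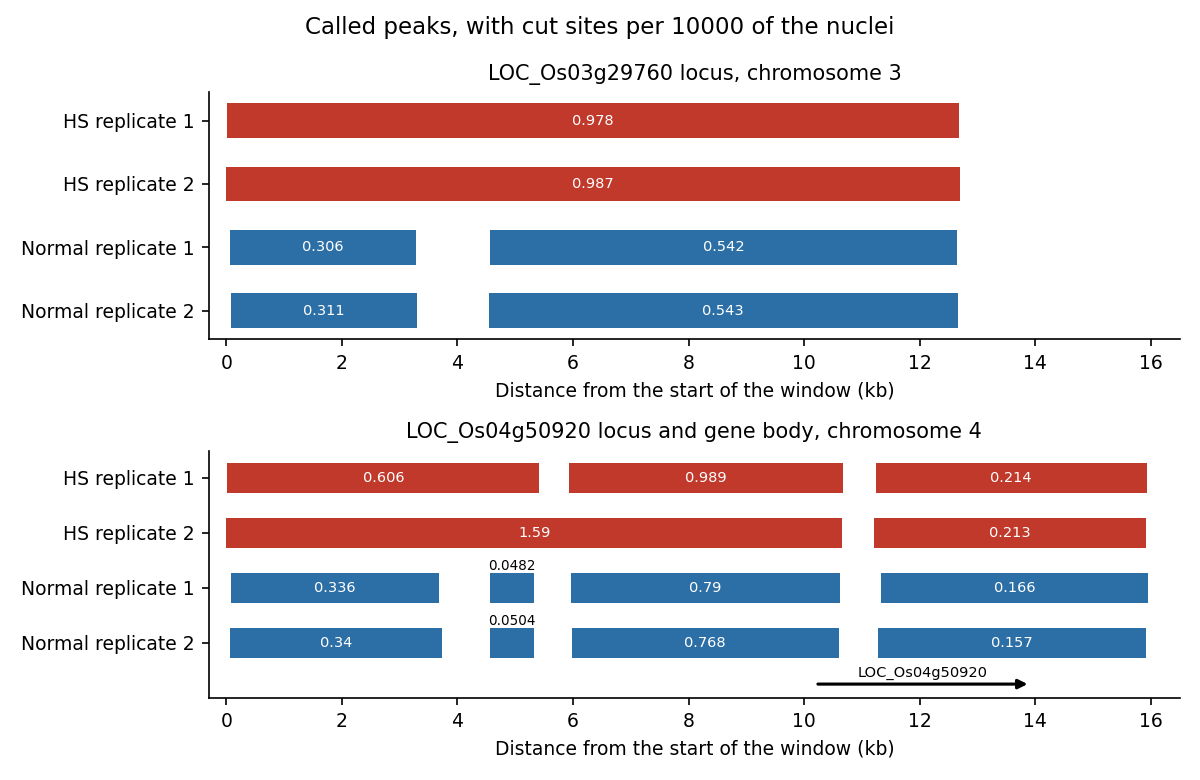
Called peaks at both loci in each library, HS above Normal, plotted as distance in kb from the start of the window; the number on or above a bar is its cut sites per 10000 of the nuclei, and the arrow is the LOC_Os04g50920 gene. The 2 Normal peaks of LOC_Os03g29760 are 1 peak in HS, and the 3 Normal peaks upstream of LOC_Os04g50920 are 2 peaks in HS replicate 1 and 1 peak in HS replicate 2.

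Both loci are long for accessible regions in these data. The merged LOC_Os03g29760 region measured 12697 bp, longer than 98.4% of the shared regions, and the LOC_Os04g50920 upstream region measured 10667 bp, longer than 97.4%, against a median of 1582 bp. The called length at LOC_Os03g29760 was 12666 and 12697 bp in HS, against 11296 and 11332 bp in Normal. At LOC_Os04g50920 it was 10137 and 10653 bp in HS, against 9019 and 9049 bp in Normal. The HS mean was thus 1.12 times the Normal mean at the first locus and 1.15 times at the second, and 38.1% of all regions were longer in both HS libraries.

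Both loci also held more cut sites in both HS libraries, with the larger ratio at the WRKY gene. LOC_Os03g29760 held 0.978 and 0.987 cut sites per 10000 in HS, against 0.848 and 0.855 in Normal, a ratio of means of 1.15. LOC_Os04g50920 held 1.60 and 1.59 cut sites per 10000 in HS, against 1.17 and 1.16 in Normal, a ratio of 1.37. The HS and Normal libraries did not overlap at either locus, a pattern shared by the 41.6% of regions that were higher in both HS libraries.

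Per called kb the ratio of HS to Normal was smaller at both loci. LOC_Os03g29760 held 0.0772 and 0.0777 cut sites per called kb per 10000 in HS, against 0.0751 and 0.0754 in Normal, so the density of cuts differed by 1.03 times. LOC_Os04g50920 held 0.157 and 0.150 per called kb per 10000 in HS, against 0.130 and 0.128 in Normal, a ratio of 1.19. Both were still higher in both HS libraries, as were 37.1% of regions. On this scale, which allows the loci to be compared with each other, the WRKY locus was the denser one, and its density exceeded that of 95.6% of shared regions, against 72.3% for LOC_Os03g29760. A matrix holds no count outside the peaks of its own library, so cuts that fell in the Normal gaps are not in these values.

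**Figure D2:**
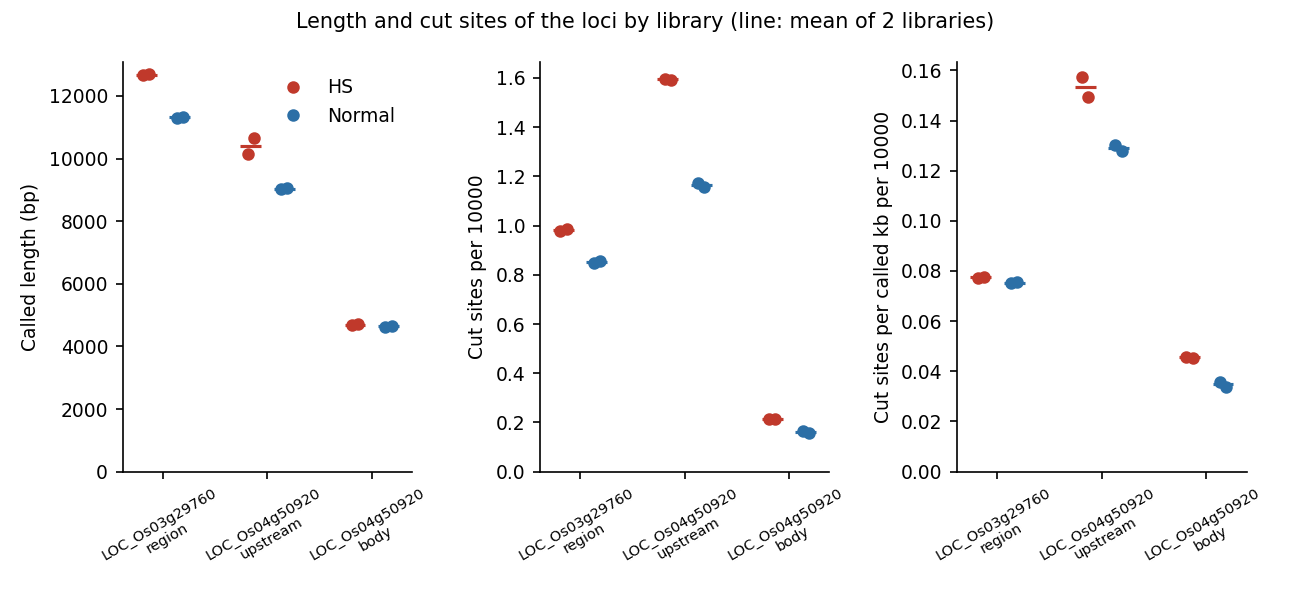
Called length in bp, cut sites per 10000 and cut sites per called kb per 10000 for the 2 loci and for the LOC_Os04g50920 body region, with 1 point per library, HS left of Normal, and a line at the mean of 2 libraries. The gap between HS and Normal at LOC_Os03g29760 is wide in length and cut sites and narrow per called kb, while the upstream and body regions of LOC_Os04g50920 stay higher in HS on both scales of cut sites.

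Neither locus reached 2-fold after heat over all nuclei. The change fitted by edgeR over all 55496 regions was 0.21 on the log2 scale at LOC_Os03g29760, above 74.4% of regions, and 0.46 at LOC_Os04g50920, above 89.0%. Of all regions, 1.93% rose past 2-fold at an adjusted p of at most 0.01 and 2.63% fell, and neither locus was among them. With the called length of each library as an offset the changes were 0.049 and 0.26.

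Regions whose called extent grew by a like amount give a closer background. Among 3549 regions whose called length ratio was within 0.03 of that of LOC_Os03g29760, the median change was 0.24, and 44.6% changed less than this locus did. Among 2705 regions with a ratio within 0.03 of that of LOC_Os04g50920, the median change was 0.27, and 77.0% changed less. The change at LOC_Os03g29760 was thus near the middle of regions that lengthened as it did, and that at LOC_Os04g50920 lay in the upper part.

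**Figure D3:**
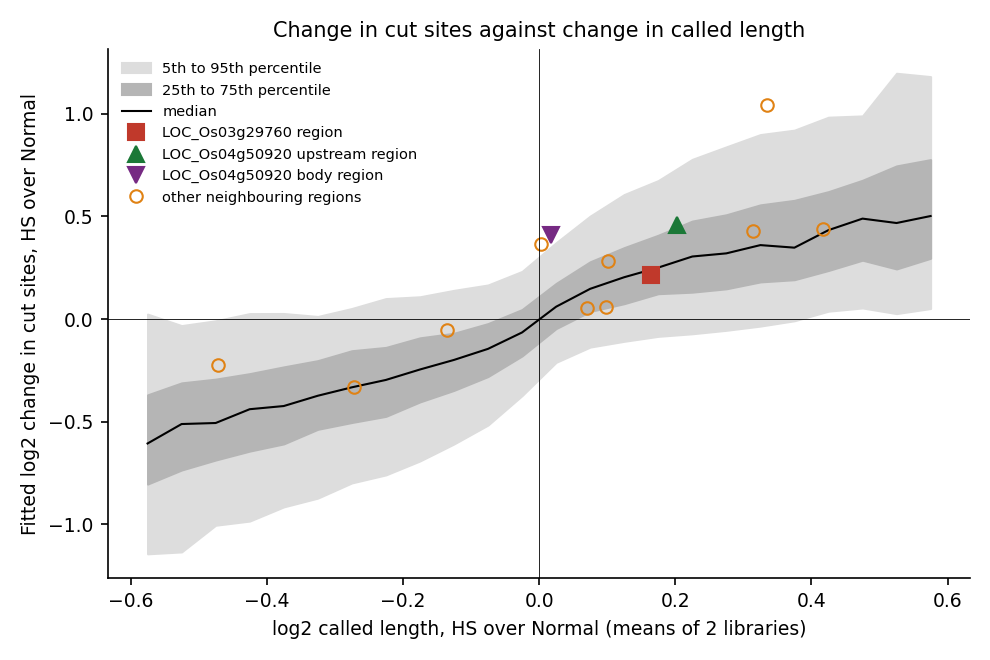
Fitted log2 change in cut sites against log2 change in called length, HS over Normal in both, with the median and percentile bands of all regions in bins of called length, and the 2 loci, the LOC_Os04g50920 body and the other neighbouring regions as points. LOC_Os03g29760 (0.21) sits near the median line, LOC_Os04g50920 upstream (0.46) above it, and the body region (0.41) is high at a length that hardly changed.

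One peak allows the same bases to be compared in 3 libraries. The gene-side peak upstream of LOC_Os04g50920, which runs into the start of the gene, had nearly the same ends in HS replicate 1 (4739 bp) as in Normal replicate 1 (4654 bp) and Normal replicate 2 (4619 bp). It held 0.989 cut sites per 10000 in HS replicate 1, against 0.790 and 0.768 in Normal, 1.27 times the Normal mean. The far part of the locus held 0.606 cut sites per 10000 in HS replicate 1, where it was 1 peak, against 0.384 and 0.390 in the 2 far peaks of the Normal libraries, a ratio of 1.57. The excess in HS replicate 1 was therefore present at matched bases and was larger in the far part, where the called bases also differed. HS replicate 2 had no separate gene-side peak and gives no such value.

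The rest of the gene lay in a second region that hardly changed its extent. The LOC_Os04g50920 body region, 4736 bp when merged, began 577 and 561 bp after the upstream region in HS, against 719 and 676 bp in Normal, and was called over 4681 and 4700 bp in HS, against 4619 and 4653 bp in Normal. It held 0.214 and 0.213 cut sites per 10000 in HS, against 0.166 and 0.157 in Normal, a ratio of 1.32 at a length ratio of 1.01. The fitted log2 change was 0.41, above 97.0% of the 14730 regions with a called length ratio within 0.03 of its own. The body region was not part of the window that chose the locus, but it belongs to the same gene and contrast, so no test is given for it.

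More nuclei held a cut site at each locus after heat. At LOC_Os03g29760 these were 67.0% of nuclei in HS replicate 1 (exact 95% binomial interval 66.1% to 67.9%) and 68.0% in HS replicate 2 (67.1% to 68.8%), against 59.5% in Normal replicate 1 (58.6% to 60.3%) and 61.3% in Normal replicate 2 (60.4% to 62.1%). At LOC_Os04g50920 they were 72.1% (71.2% to 72.9%) and 73.7% (72.8% to 74.5%) of HS nuclei, against 63.4% (62.5% to 64.2%) and 63.1% (62.2% to 63.9%) of Normal nuclei. The intervals cover counting error only.

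Because HS nuclei were deeper, the shares were recomputed after each nucleus was thinned to 10000 cut sites. Nuclei with fewer were left out, 1205 and 951 in HS, against 1491 and 1364 in Normal. The thinned share at LOC_Os03g29760 was 37.5% in both HS libraries, against 33.7% and 34.5% in Normal. At LOC_Os04g50920 it was 48.4% in both HS libraries, against 40.3% and 40.0% in Normal. Both shares count cuts over the longer called extent in HS. The order held at 1 depth, and the difference between the means shrank to 3.36 percentage points at LOC_Os03g29760 and to 8.26 at LOC_Os04g50920.

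Open nuclei also held more cut sites each in HS. Those at LOC_Os04g50920 averaged 6.77 and 6.73 cut sites in HS, against 4.96 and 4.95 in Normal, and those at LOC_Os03g29760 averaged 4.47 and 4.52 in HS, against 3.82 and 3.75 in Normal. Of all nuclei, open or not, 17.4% and 17.6% held 5 or more fragments at LOC_Os04g50920 in HS, against 8.17% and 7.87% in Normal, and 5.67% and 5.96% held as many at LOC_Os03g29760 in HS, against 2.65% and 2.54% in Normal. These values are not corrected for the depth of the nuclei or the called extent.

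**Figure D4:**
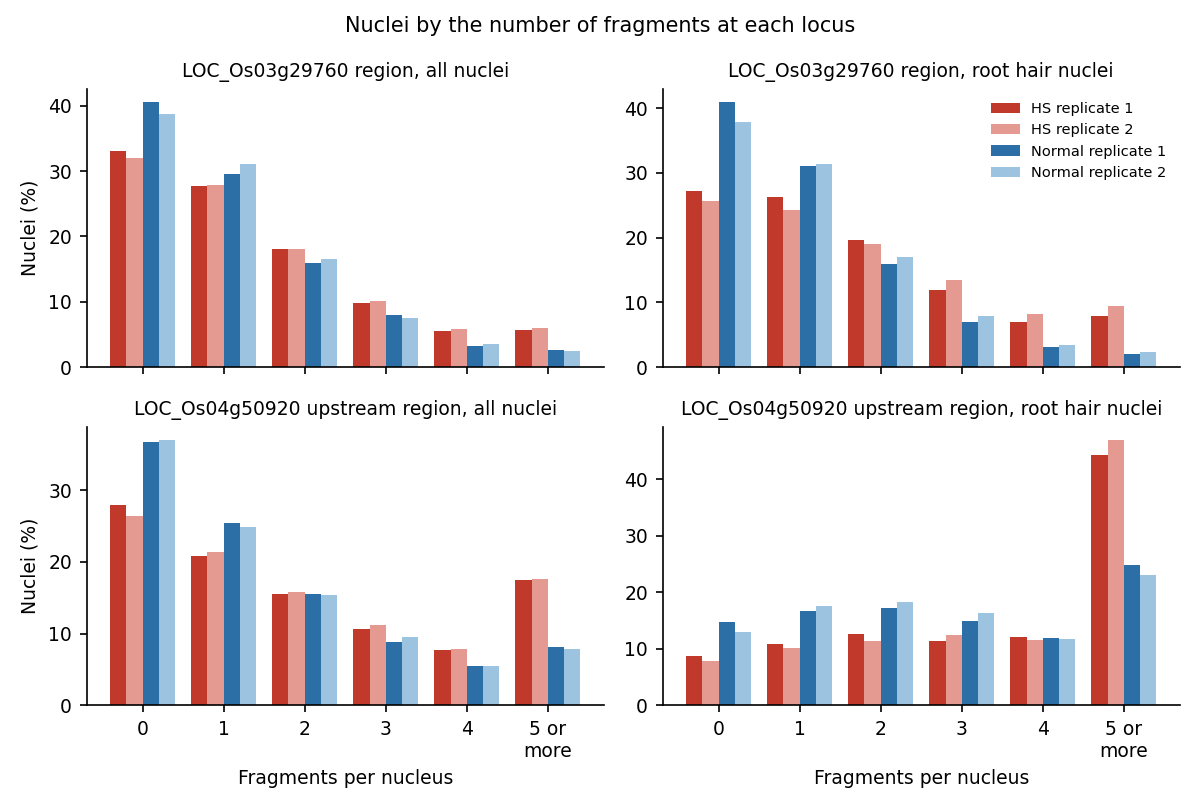
Percent of nuclei by the number of fragments at each locus, from 0 to 5 or more, for all nuclei and for root hair nuclei, with the 2 HS libraries left of the 2 Normal libraries in each set of bars. Among root hair nuclei, 44.3% and 46.9% in HS held 5 or more fragments at LOC_Os04g50920, against 24.7% and 23.1% in Normal.

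Barcodes with under 1000 cut sites, which were not counted as nuclei and can hold free DNA, carried both loci too. At LOC_Os03g29760 they held 1.01 and 0.916 cut sites per 10000 in HS, against 0.941 and 0.853 in Normal. At LOC_Os04g50920 they held 1.36 and 1.53 in HS, against 0.890 and 0.998 in Normal. The part of free DNA in the values of the nuclei was not tested.

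Nuclei were then grouped by cut sites at marker loci that the study names: 11 root hair genes with 11 regions, 11 root cap genes with 21 regions, and 1 endodermis gene, LOC_Os01g15610, with 1 region. A nucleus was placed in a group when it held at least 6 cut sites in the marker regions at no less than 2 times the mean rate of its library, and nuclei marked by more than 1 list were left out. The regions of the 2 loci were not used as markers, and the group names mean only nuclei marked at these loci, for endodermis at a single one. Root hair nuclei numbered 1504 and 1470 in HS, against 1714 and 1726 in Normal. Root cap nuclei numbered 695 and 637 in HS, against 761 and 745 in Normal. Endodermis nuclei numbered 774 and 782 in HS, against 507 and 529 in Normal. Unmarked nuclei, a mixture of all other cells and of cells missed by the markers, numbered 7404 and 7438 in HS, against 9283 and 9168 in Normal.

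Among the marked groups, the share of endodermis nuclei moved most with the treatment. It made up 7.22% and 7.29% of HS nuclei, against 3.99% and 4.20% of Normal nuclei, and its single marker region held 0.415 and 0.423 cut sites per 10000 of all HS nuclei, against 0.304 and 0.318 in Normal. Its nuclei were also deep, with medians of 33759.5 and 34238 cut sites in HS, against 30423 and 30548 in Normal. The part of this shift in the endodermis values of the loci was not tested. Unmarked nuclei made up 69.1% and 69.3% of HS nuclei, against 73.0% and 72.7% in Normal. Marker rates per 10000 were 2.43 and 2.40 in HS, against 2.56 and 2.53 in Normal, for root hair. For root cap they were 5.75 and 5.78 in HS, against 5.88 and 5.90 in Normal. The limit on cut sites was the same in both conditions although HS nuclei were deeper, and its part was not tested. The groups are cut from a score, and 675 to 1221 nuclei per library and list lay close to a limit, on either side of it. For endodermis 1053 and 1050 nuclei in HS lay close and 882 and 896 past it, against 835 and 877 close and 546 and 575 past it in Normal. For root cap 972 and 916 in HS lay close and 966 and 969 past it, against 1177 and 1221 close and 1184 and 1164 past it in Normal. For root hair 675 to 745 lay close and 1828 to 2146 past it.

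In untreated root tips, LOC_Os04g50920 was far more open in root hair and root cap nuclei than elsewhere. The upstream region held 2.34 and 2.32 cut sites per 10000 in root hair nuclei and 2.16 and 2.15 in root cap nuclei, against 0.868 and 0.860 in unmarked nuclei. The fitted log2 differences from unmarked nuclei were 1.48 for root hair, above 97.0% of regions, and 1.37 for root cap, above 97.2%. Of all regions, 6.52% were higher by at least 2-fold in root hair and 5.46% in root cap at an adjusted p of at most 0.01, and the comparison with unmarked nuclei called 28.9% of regions in either direction for endodermis, 43% for root hair and 43.9% for root cap at any fold. The study listed this gene as a marker of both cell types on these same libraries, so these values are a description and carry no test.

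Endodermis nuclei had the lowest values. The upstream region held 0.706 and 0.662 cut sites per 10000 in Normal endodermis nuclei, against 0.868 and 0.860 in unmarked nuclei. The fitted log2 difference was -0.35, and -0.53 without the deepest barcodes. It carries no test either, since the unmarked nuclei can include root hair and root cap cells that the markers missed, in which this gene was chosen to be open. Root hair, root cap, unmarked and endodermis was thus the descending order of the levels, each neighbouring pair differing by more than the spread of 2 libraries.

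The 2 main peaks upstream of the WRKY gene did not divide in the same way among the cell groups. In Normal the gene-side peak held 1.62 cut sites per 10000 in root cap nuclei of both libraries and 1.57 and 1.55 in root hair nuclei, against 0.564 and 0.549 in unmarked nuclei. The far peaks together held 0.541 and 0.533 in root cap nuclei and 0.767 and 0.766 in root hair nuclei, against 0.304 and 0.311 in unmarked nuclei. The gene-side peak therefore carried 74.9% and 75.2% of the cut sites of the locus in root cap nuclei and 67.3% and 67.0% in root hair nuclei, against 65.0% and 63.8% in unmarked nuclei. In endodermis nuclei it carried 73.1% and 72.1%, so a high share in this peak was not particular to the root cap. Root cap nuclei were thus slightly above root hair nuclei at the gene-side peak in both libraries, and root hair nuclei were the higher ones in the far part.

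At LOC_Os03g29760 the groups of untreated nuclei lay much closer together. The region held 0.821 and 0.872 cut sites per 10000 in Normal root hair nuclei, 0.941 and 0.975 in root cap nuclei and 0.876 and 0.872 in endodermis nuclei, against 0.847 in unmarked nuclei of both libraries. Root cap nuclei were higher than unmarked nuclei in 2 of 2 libraries, by 0.23 on the log2 scale with an adjusted p of 2.87e-06 by the quasi-likelihood test of edgeR over 55347 regions, where 23.2% of regions were higher at an adjusted p of at most 0.01. The differences were 0.052 for root hair (adjusted p = 0.225 by edgeR) and 0.036 for endodermis (adjusted p = 0.512 by edgeR), and neither passed the threshold. Root cap stood apart from the others by more than the spread of 2 libraries, while root hair, whose 2 libraries lay on either side of the unmarked value, and endodermis did not separate from each other.

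The root cap excess at LOC_Os03g29760 lay in 1 of the 2 Normal peaks. The first peak, which holds the annotated exonic region, had 0.484 and 0.455 cut sites per 10000 in Normal root cap nuclei, against 0.286 and 0.292 in unmarked nuclei. The second peak, the longer one, had 0.457 and 0.519 in root cap nuclei, against 0.562 and 0.555 in unmarked nuclei. The first peak thus carried 51.4% and 46.7% of the cut sites of the locus in root cap nuclei and 44.5% and 47.3% in endodermis nuclei, against 33.7% and 34.5% in unmarked nuclei. Root hair nuclei, with 38.0% and 37.5%, were nearer to the unmarked ones.

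After heat, root hair nuclei were the highest group at LOC_Os03g29760. The locus was already known for its signal in these nuclei after heat, so this standing is a description. Root hair nuclei held 1.17 and 1.23 cut sites per 10000 in HS, against 0.821 and 0.872 in Normal, a ratio of means of 1.42 and a fitted log2 change of 0.52. Both HS values were above both Normal values, as in 34.1% of regions in root hair nuclei. Unmarked nuclei held 0.955 and 0.958 in HS, against 0.847 in both Normal libraries, a ratio of 1.13 and a fitted change of 0.18, with 40.6% of regions higher in both HS libraries. Root hair nuclei stood above the other groups in both HS libraries and on either side of the unmarked nuclei in Normal.

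Root cap nuclei held slightly fewer cut sites per 10000 in HS at this locus. They held 0.877 and 0.911 cut sites per 10000 in HS, against 0.941 and 0.975 in Normal, a ratio of 0.934 and a fitted log2 change of -0.086. Both HS values were below both Normal values, as in 32.8% of regions in root cap nuclei. Endodermis nuclei held 0.917 and 0.877 in HS, against 0.876 and 0.872 in Normal, so HS replicate 2 was hardly above the Normal libraries. The fitted endodermis change was 0.056, and 30.2% of regions were higher in both HS endodermis libraries. These sums cover the longer called extent in HS, which includes stretches not called in Normal. Called length is a value of the library and the same for all its groups. Per called kb the ratio of HS to Normal therefore fell by nearly the same factor in every group. Root hair nuclei held 0.0923 and 0.0970 cut sites per called kb per 10000 in HS, against 0.0727 and 0.0769 in Normal, higher in both HS libraries as in 29.3% of regions. Unmarked nuclei held 0.0754 and 0.0755 in HS, against 0.0750 and 0.0748 in Normal, a ratio of 1.01 where 35.9% of regions were higher in both HS libraries. Root cap nuclei held 0.0692 and 0.0718 in HS, against 0.0833 and 0.0860 in Normal, lower in both HS libraries as in 29.7% of regions. Endodermis nuclei held 0.0724 and 0.0691 in HS, against 0.0776 and 0.0769 in Normal, so on this scale both HS libraries were lower, as in 29.5% of regions. The ratio per called kb was 1.26 in root hair nuclei, the highest of the 4 groups. The difference in the heat change between the groups was not tested, since the locus was chosen on the contrast of HS with Normal.

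The root hair change at LOC_Os03g29760 exceeded the unmarked change by 0.34 on the log2 scale, a difference larger than in 90.8% of regions. The root hair signal of the locus after heat was known beforehand, so this rank is a description. The root cap change was below the unmarked change by a difference of -0.27, with 21.3% of regions lower still. Set against unmarked nuclei of the same library, which share its called extent, root hair nuclei were 1.22 and 1.28 times as open in HS, against 0.970 and 1.03 times in Normal. Root cap nuclei were 0.918 and 0.951 times as open in HS, against 1.11 and 1.15 times in Normal. The fitted difference between root hair and unmarked nuclei within HS was 0.38, and that between root cap and unmarked nuclei was -0.052.

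Shares of open nuclei gave the same order at 1 depth. The thinned share at LOC_Os03g29760 was 43.2% and 45.1% of root hair nuclei in HS, against 33.1% and 35.7% in Normal. Among root cap nuclei it was 33.8% and 35.0% in HS, against 37.3% and 37.9% in Normal. Unthinned, 72.7% and 74.4% of root hair nuclei were open in HS, against 59.1% and 62.2% in Normal. Unthinned root cap shares of 54.1% and 58.7% in HS, against 61.1% and 59.5% in Normal, went with shallower HS nuclei in that group (medians of 21703 and 22505 cut sites in HS, against 23242 and 22542 in Normal).

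At LOC_Os04g50920 every group held more cut sites in HS, the root cap with the smallest ratio, and per called kb the root cap was lower. Root hair nuclei held 3.15 and 3.22 cut sites per 10000 in HS, against 2.34 and 2.32 in Normal, a ratio of 1.37 and a fitted log2 change of 0.47. Root cap nuclei held 2.39 and 2.45 in HS, against 2.16 and 2.15 in Normal, a ratio of 1.12 and a fitted change of 0.18. The spread of the 2 libraries within each condition was small against both differences. Higher values in both HS libraries were found at 34.1% of regions in root hair nuclei and at 29.6% in root cap nuclei. Per called kb, root cap nuclei held 0.236 and 0.230 cut sites per 10000 in HS, against 0.240 and 0.238 in Normal. Both HS libraries were slightly lower, as in 29.7% of regions, but the HS length includes stretches not called in Normal. Root hair nuclei held 0.311 and 0.302 per called kb in HS, against 0.260 and 0.256 in Normal, and stayed higher, as in 29.3% of regions.

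In the groups with the lowest levels the fitted changes were close to that in root hair nuclei. Endodermis nuclei held 0.989 and 0.912 cut sites per 10000 at LOC_Os04g50920 in HS, against 0.706 and 0.662 in Normal, a ratio of 1.39 and a fitted log2 change of 0.49. Unmarked nuclei held 1.23 in both HS libraries, against 0.868 and 0.860 in Normal, a ratio of 1.43 and a fitted change of 0.52. On the log2 scale the root hair change differed from the unmarked one by -0.05, with 41.4% of regions lower still, and the root cap change by -0.34, with 16.7% lower still. Per called kb, endodermis nuclei held 0.0976 and 0.0856 in HS, against 0.0782 and 0.0731 in Normal, where 25.9% of regions were higher in both HS libraries. Unmarked nuclei held 0.122 and 0.116 per called kb in HS, against 0.0962 and 0.0950 in Normal, where 35.9% of regions were higher in both HS libraries. The order of the cell groups at the WRKY locus was the same in HS as in Normal, with root hair 2.55 and 2.61 times and root cap 1.94 and 1.99 times as open as unmarked nuclei in HS, against 2.70 times in both Normal libraries for root hair and 2.49 and 2.50 times for root cap.

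**Figure D5:**
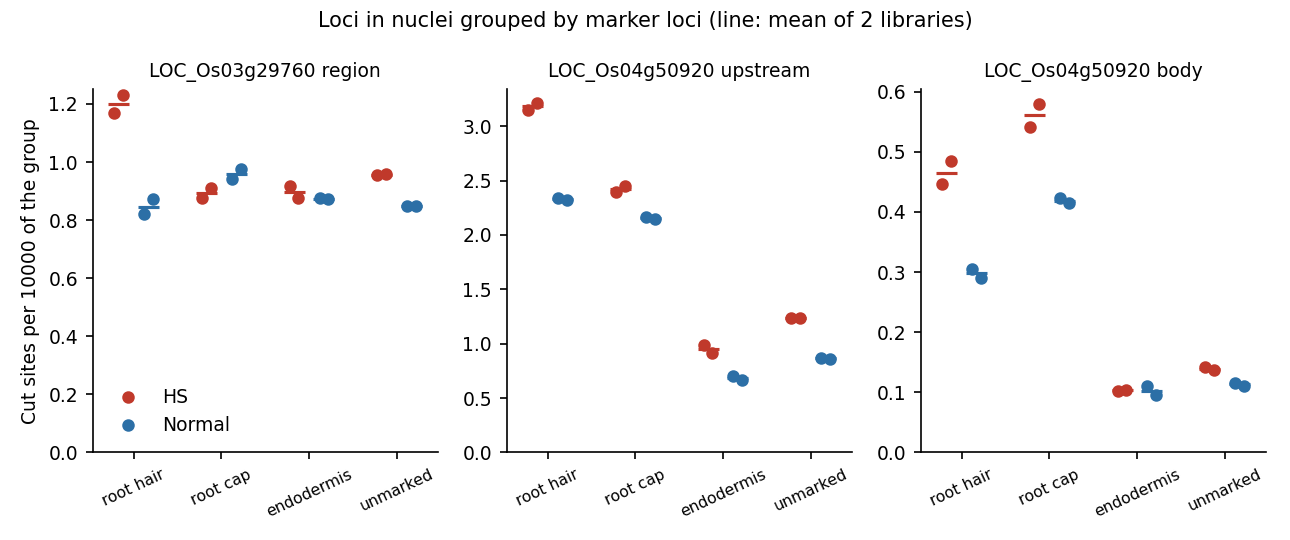
Cut sites per 10000 in root hair, root cap, endodermis and unmarked nuclei at LOC_Os03g29760, upstream of LOC_Os04g50920 and in its body region, with 1 point per library, HS left of Normal, and a line at the mean of 2 libraries. Root hair nuclei stand out at LOC_Os03g29760 in HS (1.17 and 1.23), while at LOC_Os04g50920 root hair and root cap stand above the other groups in both conditions.

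No group called either locus as changed at the limits used over all regions: the loci stayed under 2-fold in root hair, root cap, endodermis and unmarked nuclei. Of all regions, 6.2% passed the limits in root hair nuclei, 5.17% in root cap, 4.83% in endodermis and 4.98% in unmarked nuclei. Thinned shares at LOC_Os04g50920 were 76.5% and 76.6% of root hair nuclei in HS, against 67.0% and 67.4% in Normal. Among root cap nuclei they were 65.3% and 66.6% in HS, against 63.3% and 64.6% in Normal. Endodermis nuclei, which had the lowest levels at this locus, gave 33.6% and 31.6% in HS, against 26.8% and 24.3% in Normal.

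The peak with matched ends separates the root cap from the other groups. In root cap nuclei the gene-side peak of LOC_Os04g50920 held 1.59 cut sites per 10000 in HS replicate 1, against 1.62 in both Normal libraries. In root hair nuclei it held 1.89 in HS replicate 1, against 1.57 and 1.55 in Normal. Unmarked nuclei gave 0.759 in HS replicate 1, against 0.564 and 0.549 in Normal. At these bases the root cap value was 0.981 times the Normal mean, set beside 1.21 times in root hair, 1.40 times in endodermis and 1.36 times in unmarked nuclei. The far part was higher in HS replicate 1 in every group, with 0.807 cut sites per 10000 in root cap nuclei, against 0.541 and 0.533 in Normal, and with ratios to the Normal mean of 1.64 in root hair, 1.57 in endodermis and 1.54 in unmarked nuclei. These ratios rest on 1 HS library.

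The body region of LOC_Os04g50920 ranked the groups differently from the upstream region. Root cap nuclei were highest there, with 0.542 and 0.580 cut sites per 10000 in HS, against 0.423 and 0.414 in Normal. Root hair nuclei held 0.447 and 0.484 in HS, against 0.305 and 0.290 in Normal, the largest fitted log2 change of the 4 groups at 0.66. Unmarked nuclei held 0.141 and 0.137 in HS, against 0.116 and 0.111 in Normal. Endodermis nuclei held 0.102 and 0.104 in HS, against 0.110 and 0.0955 in Normal, so the HS and Normal libraries overlapped. These values rest on 299 and 312 cut sites in HS, against 195 and 174 in Normal. The other groups were higher in both HS libraries, as were 34.1% of regions in root hair, 29.6% in root cap and 40.6% in unmarked nuclei.

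The 2 loci were opened in the same nuclei about as often as their separate shares give. After thinning, both were open in 18.6% of nuclei in both HS libraries, where the product of the separate shares was 18.1% and 18.2%, and in 13.6% and 13.8% of Normal nuclei, where the product was 13.6% and 13.8%. Within root hair nuclei both were open in 33.2% and 34.7% in HS, against 22.2% and 24.2% in Normal, and the ratio to the product was between 1.00 and 1.01. Over all groups and libraries that ratio ran between 0.961 and 1.05.

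Of the 6 neighbours of LOC_Os03g29760, 4 were higher in both HS libraries, as were 41.6% of all regions. Of the 3 merged regions on its left, at 17397911 to 17405947, 17406953 to 17407946 and 17393540 to 17394742, the fitted log2 changes were 0.43, 0.28 and 0.44. The first of them also had joined peaks in 1 library, with 1 peak in HS replicate 1 and 2 in HS replicate 2, against 2 in both Normal libraries. On the right the nearest region lay 25630 bp away and changed by 0.37, the next by -0.33 and the third by 0.05. None of the 6 reached 2-fold, and 4.56% of all regions passed both limits. The third on the right overlapped between the groups, with 0.105 and 0.111 cut sites per 10000 in HS, against 0.102 and 0.107 in Normal. The heat change of the locus was thus not larger than that of 4 of its 6 neighbours.

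Next to LOC_Os04g50920, 1 neighbour changed more than the locus. The region at 30200878 to 30202500, which lies 4729 bp to the left on the far side of LOC_Os04g50910, held 0.113 and 0.108 cut sites per 10000 in HS, against 0.0512 and 0.0567 in Normal. Its log2 change of 1.04 passed both limits, with an adjusted p of 9.6e-05 by edgeR and HS higher in 2 of 2 libraries. It was called over 1618 and 1617 bp in HS, against 1253 and 1313 bp in Normal, and its change fell under 2-fold with called length as an offset (0.71) or without Normal replicate 1 (0.97). The other regions on the left changed by 0.06 and -0.22, and on the right, beyond the gene body, the next region changed by -0.05. The third region on the right, of 257 bp, was called in the Normal libraries only and has no fitted value.

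The WRKY list could be read at few genes. Of 22 WRKY genes in the motif table of the study, 3 have a position in the sources used here, and these are genes that the study chose as markers on these libraries. None of the 5 regions of these 3 genes that were called in all libraries passed the limits of the heat comparison, where 4.56% of regions did. The large region over LOC_Os01g14440 on chromosome 1, from 8088533 to 8107247, went opposite to LOC_Os04g50920. It was 1 peak in both Normal libraries and 3 in both HS libraries, held 1.92 and 1.93 cut sites per 10000 in HS, against 2.46 and 2.45 in Normal, and changed by -0.34 on the log2 scale. The 2 regions of LOC_Os11g29870 on chromosome 11 changed by -0.20 and -0.63. The 3 genes thus had no common direction.

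Regions with a profile like that of the loci were sought over the 16 sums of library and cell group. The 3 closest to LOC_Os03g29760 among 53610 others were at 5468196 to 5472621 of chromosome 1, 9902102 to 9904003 of chromosome 2 and 6780782 to 6785862 of chromosome 1, with Pearson correlations of log2 rates of 0.918, 0.917 and 0.888. At the first of them root hair nuclei averaged 0.308 cut sites per 10000 in HS, against 0.147 in Normal, and root cap nuclei 0.173 in HS, against 0.146 in Normal. The 3 closest to LOC_Os04g50920 were at 471418 to 475303 of chromosome 1 and at 1573754 to 1581960 and 8457580 to 8460437 of chromosome 8, with correlations of 0.994, 0.992 and 0.991. Here the first held 1.08 in root hair nuclei in HS, against 0.760 in Normal, and 0.422 in unmarked nuclei in HS, against 0.330 in Normal. The 16 sums share libraries, so the correlations are a description, and 1% of all regions correlated above 0.677 with LOC_Os03g29760 and above 0.932 with LOC_Os04g50920. None of the 6 was used as a marker region, though both on chromosome 8 lie at genes of the study's marker table, LOC_Os08g03350 and LOC_Os08g14810, and the correlation between the loci themselves was 0.549.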

How the data were processed

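The authors processed each library with Cell Ranger ATAC 1.2.0 (named in the submitters' processing notes) and deposited a peak list, a barcode list and a matrix of raw counts of Tn5 cut sites per peak and barcode (neither normalized nor filtered for cells). No source used here states the genome build or the peak settings. Groups were read from the titles of the samples, and the temperature and time of the heat treatment from the study's text.

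Nuclei were the top barcodes by cut sites, in the number the study tabulates per library, and held 93.6% to 93.8% of the counts. Totals in peaks were 328595993 and 334727687 cut sites in HS nuclei, against 341590315 and 340628221 in Normal nuclei. No doublets were removed in the main analysis, and an alternative dropped the deepest barcodes, as many as the number of nuclei squared over 100000. Peaks sharing at least 1 bp were merged, and regions called in all 4 libraries were used. Sums per library were fitted with edgeR 4.0.16 in R 4.3.3 (TMM, filterByExpr, quasi-likelihood test, Benjamini-Hochberg adjustment over all regions), and regions were called at an adjusted p of at most 0.01 and 2-fold. Cell groups in Normal were compared with library as a covariate, and there the threshold was an adjusted p of at most 0.01. The biological coefficient of variation was 0.0759 over all nuclei. DESeq2 1.42.0 was an alternative. The heat fit was also run on simulated counts with a common dispersion and no difference in called length. That run therefore says nothing about the effect of called length. Thinning drew fragments of 2 cut sites without replacement, by the hypergeometric formula. The rest was computed in Python 3.11.15 (pandas 2.3.3, numpy 2.4.6, scipy 1.17.1) and drawn with matplotlib 3.10.9.

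The regions named are the 2 loci, the rest of the LOC_Os04g50920 gene, the 3 merged regions on each side, WRKY genes with a known position and the 3 regions most correlated with each locus. The loci, marker lists and comparisons were chosen with earlier results of these data known. Marker genes are the first of their kind in the marker table of the study that are not listed for the other kind. A marker region overlaps the gene or its 2000 bp upstream (for LOC_Os01g15610, the tabulated promoter region); 1 root hair gene, LOC_Os07g41850, had no region in all libraries. No genome sequence of the build was at hand, so no sequences or motifs are shown.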

Additional observations from a re-analysis of the deposited data

Results flagged for a closer look

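The ratio of HS to Normal cut sites per 10000 at LOC_Os03g29760 was slightly below even in root cap nuclei and above it in the other groups. In root cap nuclei both HS libraries were below both Normal libraries, as in 32.8% of regions, with a log2 ratio of HS to Normal means of -0.10. The fitted root cap change was small, at -0.086, and at -0.022 without the chromosome 10 root hair genes. In root hair nuclei both HS libraries were above both Normal libraries, as in 34.1% of regions, with a log2 ratio of 0.50. The same held in unmarked nuclei with 0.18 (40.6% of regions) and in endodermis nuclei with 0.037 (30.2% of regions). In endodermis nuclei HS replicate 2 was above the higher Normal library by less than 0.01 cut sites per 10000. The HS sums cover a longer called extent, which includes stretches not called in Normal and is the same for all groups of a library. Per called kb both HS libraries were below both Normal libraries in endodermis nuclei as well (0.0724 and 0.0691 in HS, against 0.0776 and 0.0769 in Normal), and unmarked nuclei differed by a ratio of only 1.01. The difference between the groups was not tested, because the locus was chosen on the contrast of HS with Normal. It was also already known for its root hair signal after heat.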

How the results depend on the processing

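Alternatives covered the choice of nuclei, marker limits and lists, normalization, low-count filter, called length, threshold, a block on replicate number and each library left out in turn. Of 396 alternative values, 384 kept the sign of the reported one. Called length mattered most: as an offset it gave log2 heat changes of 0.049 at LOC_Os03g29760 and 0.26 upstream of LOC_Os04g50920 and called 243 regions, against 2531 without it, and with only regions whose length differed by under 10% between libraries 19 were called and neither locus was in the fit. At 4-fold 431 regions were called. At least 3 cut sites gave differences in the share of open nuclei of 9.54 percentage points at LOC_Os03g29760 and 13.8 at LOC_Os04g50920, and thinning gave 3.36 and 8.26, against 7.07 and 9.67 as deposited.

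An alternative chosen after seeing the data took heat changes by group per called kb, with the same length for all groups of a library. It gave 0.34 in root hair, -0.26 in root cap, -0.13 in endodermis and 0.011 in unmarked nuclei at LOC_Os03g29760, and 0.25, -0.033, 0.28 and 0.31 in the same order at LOC_Os04g50920, so endodermis at the first locus and root cap at the second changed sign.

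In the other heat changes by group, at least 4 cut sites and 3 times the mean rate gave 0.19 in unmarked nuclei at LOC_Os03g29760, and 0.25 in root cap and 0.46 in unmarked nuclei at LOC_Os04g50920. At least 10 cut sites gave -0.031 in endodermis and 0.18 in unmarked nuclei at LOC_Os03g29760, and 0.21 in root cap and 0.50 in unmarked nuclei at LOC_Os04g50920. Windows ending 500 bp into the gene gave 0.19 and 0.51 in unmarked nuclei at the loci. Without the chromosome 10 root hair genes the values at LOC_Os03g29760 were -0.022 in root cap and 0.20 in unmarked nuclei. Without the deepest barcodes the values were 0.17 in unmarked nuclei at LOC_Os03g29760, 0.43 in all and 0.50 in unmarked nuclei at LOC_Os04g50920.

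In Normal, the endodermis difference at LOC_Os03g29760 became -0.023 with the limit of 4 cut sites (edgeR adjusted p = 0.711) and -0.00076 without the deepest barcodes (edgeR adjusted p = 0.992), still short of the threshold. At LOC_Os04g50920 the root hair difference was 1.47 with DESeq2, 1.49 without a low-count filter, 1.44 and 1.49 with the limits of 4 and 10 cut sites, 1.44 with short windows, 1.36 without the chromosome 10 genes, 1.49 with nuclei of at least 10000 cut sites and 1.58 without the deepest barcodes. The root cap difference was 1.35 with DESeq2, 1.35 without the filter, 1.34 with the limit of 4, 1.35 with short windows, 1.32 without the chromosome 10 genes, 1.39 with nuclei of at least 10000 cut sites and 1.44 without the deepest barcodes. The called contrast in Normal (root cap at LOC_Os03g29760) stayed past the threshold in every alternative that gave a test.

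Leaving out 1 library gave heat changes of 0.21 to 0.22 at LOC_Os03g29760 and 0.44 to 0.47 at LOC_Os04g50920, 0.18 to 0.19 and 0.51 to 0.53 in their unmarked nuclei, and -0.11 to -0.05 in root cap nuclei at LOC_Os03g29760. With 1 Normal library, a value without a test, the Normal differences at LOC_Os04g50920 were 1.48 in root hair and 1.37 to 1.38 in root cap nuclei. Between 2199 and 2943 regions were called. With the replicate block, the changes were 0.21 and 0.46 and 2400 regions were called. Deviations of same-numbered libraries from their group means had r = 0.018. The other pairing had r = -0.018, its mirror image with 2 libraries per group. These values do not tell which libraries shared a batch.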
